A study of Mus musculus with 12 samples.

Results

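The 10 genes described here build and regulate sodium reabsorption in the distal nephron: Slc12a3, Scnn1a, Scnn1b, Scnn1g, Wnk1, Wnk4, Klhl3, Stk39, Sgk1 and Hsd11b2. They were chosen by name for what their products do, and all 10 were found among the 46095 gene symbols of a table of RNA-seq counts from mouse renal cortex. All 10 were also among the 17530 genes with enough counts to be tested. The tissue came from C57BL/6 mice labelled 12 weeks old, in 3 groups of 4 libraries. The first group had diabetic nephropathy, the kidney disease of diabetes, and received sodium butyrate (DN+NaB), the salt of a short-chain fatty acid that inhibits histone deacetylases. The second had diabetic nephropathy and no butyrate (DN), and the third was the normal control (NC). The labels state no method of inducing diabetes and no butyrate dose, route or length of treatment. They tie no library to an animal, so p-values measure the spread between these libraries. Total counts ran from 58394975 to 70674015 per library.

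The last segments of the nephron set how much sodium leaves in the urine. In the distal convoluted tubule, the thiazide-sensitive cotransporter NCC (Slc12a3) carries sodium and chloride into the cell. WNK kinases activate the kinase SPAK (Stk39), which phosphorylates NCC, and a ubiquitin ligase that contains KLHL3 marks WNK kinases for degradation. In the connecting tubule and collecting duct, principal cells take up sodium through the epithelial channel ENaC, whose subunits are encoded by Scnn1a, Scnn1b and Scnn1g. Aldosterone raises ENaC activity through the mineralocorticoid receptor, partly by inducing the kinase SGK1, and HSD11B2 inactivates glucocorticoids in these cells so that they do not occupy that receptor.

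The labels name renal cortex as the tissue, but their extraction text speaks of prefrontal cortex. Kidney genes were abundant in all 12 libraries: Lrp2, the endocytic receptor megalin, had at least 547305 counts and Umod, the uromodulin gene, at least 165229. Snap25, a gene of neurons, had 0 counts throughout, which allows up to 3 in each library. Of 6 adrenal gland markers, Cyp11b2 and Cyp21a1 had 0 counts in every library, and Cyp11b1 and Cyp11a1 had at most 8. Star had 14 to 36 counts in DN+NaB, 30 to 46 in DN and 18 to 31 in NC, and Hsd3b1 had 1 to 39 in DN+NaB, 4 to 36 in DN and 0 to 1 in NC. Hsd3b1 was called higher in DN against NC (adjusted p = 0.00702) and in DN+NaB against NC (adjusted p = 0.00454) by edgeR. A pair of libraries stood low for most of the 10 genes. NC replicate 4 was the lowest NC library for 9 of the 10, all but Wnk1, while it was lowest for 35.5% of all genes tested. DN replicate 4 was the lowest DN library for 7 of the 10, against 33.4% of all genes tested. Fold changes in DN against NC are therefore also given without each of them.

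**Figure D1:**
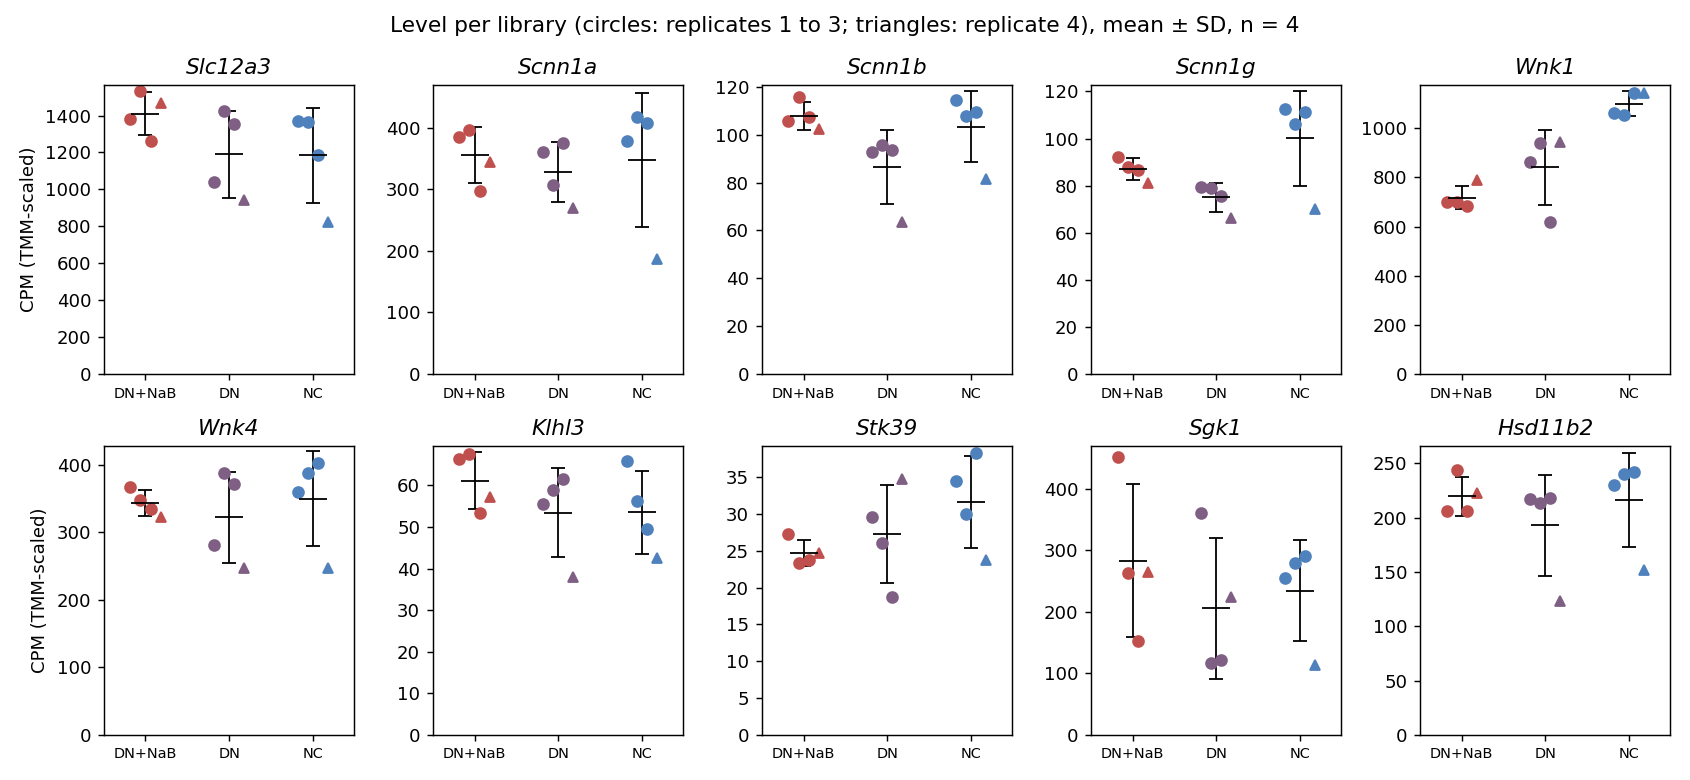
Level of each of the 10 genes in CPM (counts scaled to library size) per library, with 1 panel per gene, circles for replicates 1 to 3, triangles for replicate 4, and the mean ± SD of each group as a horizontal line with error bars (n = 4). For Wnk1 the 4 DN+NaB libraries, at 685.2 to 787.3 CPM, all lie below the 4 NC libraries, at 1051.6 to 1143.2 CPM. These 2 groups did not overlap for 27.9% of all genes tested.

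Levels are given as CPM, the counts of a gene scaled to library size with TMM factors. To compare genes with each other, the mean CPM of each was divided by the length of its annotated exons in kilobases (GENCODE M21, all transcripts of a gene merged). On this scale Slc12a3 and Hsd11b2 had the highest levels of the 10 in all 3 groups. Slc12a3 had 127 ± 10.4 CPM per kilobase in DN+NaB, 107 ± 21.2 in DN and 107 ± 23.1 in NC, and Hsd11b2 had 119 ± 9.72 in DN+NaB, 105 ± 25.2 in DN and 118 ± 23.6 in NC (SD, n = 4). The difference between them was smaller than 1 SD in each group. Scnn1a and Wnk4 came next and also lay within 1 SD of each other, at 86.0 and 82.8 CPM per kilobase in DN+NaB, 79.3 and 77.6 in DN and 84.0 and 84.3 in NC. Sgk1, Scnn1b, Wnk1 and Scnn1g filled the middle places, from 57.8 to 29.1 CPM per kilobase in DN+NaB, 42.0 to 25.1 in DN and 48.2 to 33.4 in NC. Klhl3 came ninth in each group, at 8.35 CPM per kilobase in DN+NaB, 7.30 in DN and 7.31 in NC, and Stk39 was last. The α subunit of the channel was thus above its β and γ subunits per length in every group. The order depends on the annotated lengths, which for Slc12a3 (11119 bases) and Wnk1 (22825 bases) include long transcripts of unknown share in these libraries.

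Wnk1 was the gene of the set with a change that passed the test. WNK1 is a kinase that lacks a lysine found in other kinases at the usual position, and the kidney also makes a short form without kinase activity from an internal promoter. The counts merge both forms, so that the result below cannot be assigned to either. Wnk1 had 699.7, 699.3, 685.2 and 787.3 CPM in the 4 DN+NaB libraries. It had 863.0, 939.7, 617.4 and 943.2 CPM in the DN libraries. In the NC libraries it had 1062.0, 1051.6, 1143.2 and 1141.1 CPM. Every DN+NaB and every DN library was below every NC library, while DN+NaB and DN overlapped through DN replicate 3, the lowest of all 12. Of all genes tested, 27.9% did not overlap between DN+NaB and NC and 13.3% between DN and NC, in either direction.

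In DN+NaB against NC, Wnk1 fell by 0.62 on the log2 scale (SE 0.13, 95% interval -0.89 to -0.34, adjusted p = 0.00552, edgeR's quasi-likelihood test with Benjamini-Hochberg adjustment over all genes tested). It was the only one of the 10 genes called in this comparison, where called means an adjusted p under 0.05 and 15.6% of all genes tested were called. Of all genes tested, 8.94% were called lower there, and the 1 in 10 found here is near that share. Wnk1 was also the only one of the 10 with an unadjusted p under 0.05 there, against 30.1% of all genes tested. Its log2 fold change stayed between -0.73 and -0.59 over 22 alternative settings and left-out libraries, with adjusted p from 0.000182 to 0.0223. In whole cortex, fewer cells that express a gene and less RNA per cell cannot be told apart, here and in every result below.

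For Wnk1 in DN against NC the log2 fold change was -0.39 (SE 0.13, 95% interval -0.66 to -0.11) with an adjusted p of 0.0868 in edgeR's test, so it was not called. Without DN replicate 4, the highest DN library for this gene, the log2 fold change was -0.46 and the adjusted p 0.0455 in the same test. Without DN replicate 3, the lowest library, it was -0.26 with an adjusted p of 0.194, and without NC replicate 4 it was -0.37 with an adjusted p of 0.158. It was called in 1 of the 22 alternatives. For DN+NaB against DN it was -0.23 (SE 0.13, 95% interval -0.51 to 0.05, adjusted p = 0.601 in edgeR's test). The comparisons share libraries and are not independent of each other. Other cell types' markers differed in the same libraries. Of 9 immune cell markers tested, 7 were called lower in DN+NaB against NC, against 8.94% of all genes tested. The summed level of the 9 was 316 to 982 CPM in DN+NaB and 903 to 1249 CPM in NC, which overlap. In DN it was 1130 to 4192 CPM, but the markers did not rise together there. In DN against NC, 7 of the 9 log2 fold changes were negative and 2 positive, with a median of -0.66. Csf1r, the 1 called (against 8.23% of all genes tested), was at -0.91 (adjusted p = 0.000266, edgeR's test). Cd74 was at 1.64 (adjusted p = 0.0711, edgeR's test). Of 8 thick ascending limb markers, 2 were called lower (Umod and Slc12a1) and 1 higher (Cldn10), against 8.94% and 6.62% of all genes tested. Their summed level, of which Umod is the largest part, was 3812 to 5049 CPM in DN+NaB, against 5387 to 9622 CPM in NC. In DN it was 4095 to 5766 CPM. The part of these markers in the Wnk1 result was not tested. By a fixed measure of likeness, the root mean square difference of centred log2 CPM over the 12 libraries, the genes closest to Wnk1 among 12406 were Tifab (0.085) and Vim (0.089).

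The stretch upstream of the RefSeq start of Wnk1 is shown because it belongs to the gene with the called change. Here and below, the windows are 190 bases long, run from 250 to 61 bases before a RefSeq start (GRCm38.p6) and are written 5′ to 3′ on the strand of the gene. RefSeq windows matched 8 of the 10 genes, all but Scnn1a and Hsd11b2. The Wnk1 window lies on the minus strand at chr6:120038716-120038905, and capitals mark matches to the GC box, GGGCGG or its reverse complement CCGCCC.

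Wnk1: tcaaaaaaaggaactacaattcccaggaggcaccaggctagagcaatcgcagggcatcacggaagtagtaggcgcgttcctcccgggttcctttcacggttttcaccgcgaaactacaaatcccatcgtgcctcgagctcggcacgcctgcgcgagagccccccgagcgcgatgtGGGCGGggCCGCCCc

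It holds 2 GC boxes, as 22.8% of all 32851 windows hold at least 1, and its GC content was 61.6%, against a median of 51.6% over all windows. A match describes the letters only.

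The other kinase genes and KLHL3 did not pass the test in any comparison. Wnk4, a kinase gene expressed mainly in the distal nephron, had 322.0 to 367.7 CPM in DN+NaB, 247.8 to 387.2 CPM in DN and 247.8 to 402.9 CPM in NC, and the 3 ranges overlap. Its log2 fold change was -0.12 (95% interval -0.47 to 0.24) in DN against NC, or -0.26 without NC replicate 4 and -0.031 without DN replicate 4, and 0.09 (-0.26 to 0.45) in DN+NaB against DN. Wnk4 overlaps the antisense gene Gm11615, and since the use of strand in counting is not given in the sources used here, reads of the pair may be mixed. Klhl3, the substrate adaptor of the ligase, had 53.4 to 67.6 CPM in DN+NaB, 37.9 to 61.6 CPM in DN and 42.5 to 66.0 CPM in NC. Its log2 fold change was -0.0016 (95% interval -0.35 to 0.35) in DN against NC, or -0.11 without NC replicate 4 and 0.11 without DN replicate 4, and 0.19 (-0.16 to 0.54) in DN+NaB against DN.

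Stk39, the SPAK gene, had 23.3 to 27.3 CPM in DN+NaB, 18.7 to 34.7 CPM in DN and 23.8 to 38.3 CPM in NC. It was lower in DN+NaB than in NC by a log2 difference of -0.35 (SE 0.18, 95% interval -0.74 to 0.03, adjusted p = 0.201 in edgeR's test), a difference that did not pass. With NC replicate 4 and DN replicate 4 both left out, a setting chosen after the data were seen, it was -0.48 with an adjusted p of 0.0457 in edgeR's test. In DN against NC the log2 fold change of Stk39 was -0.21 (95% interval -0.60 to 0.17), or -0.34 without NC replicate 4 and -0.37 without DN replicate 4. The 4 DN libraries spread widest, with a coefficient of variation of 24.6%, against 7.14% in DN+NaB and 19.8% in NC. Relative to Wnk4, the CPM of Wnk1 were 1.90 to 2.45 times as high in DN+NaB, 1.66 to 3.81 times in DN and 2.71 to 4.61 times in NC. This ratio of CPM did not overlap between DN+NaB and NC, and it was highest in NC replicate 4. It contains Wnk1, the called gene, and it was not tested. The share of other gene pairs whose ratios do not overlap was not computed.

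The NCC gene Slc12a3 had 1379, 1530, 1263 and 1466 CPM in the DN+NaB libraries. The DN libraries had 1039, 1425, 1355 and 942 CPM, and the NC libraries 1370, 1363, 1184 and 822 CPM. The lowest value of both DN and NC was that of replicate 4, and all 3 groups overlap. The log2 fold change was 0.01 (95% interval -0.36 to 0.38, adjusted p = 0.991) in DN against NC and 0.24 (-0.13 to 0.61, adjusted p = 0.671) in DN+NaB against DN, by edgeR's test. Without NC replicate 4 the first of these was -0.15 (adjusted p = 0.619 in edgeR's test), while it was 0.084 without DN replicate 4 and -0.093 without TMM scaling, so its direction is not settled.

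Set against other genes of the distal convoluted tubule, Slc12a3 stood differently. It amounted to 38.8 to 48.8% of the summed CPM of 10 markers of this segment in DN+NaB, 36.0 to 49.8% in DN and 25.3 to 35.7% in NC. Neither DN+NaB nor DN overlapped NC. The difference in mean log2 ratio was 0.50 for DN against NC and 0.57 for DN+NaB against NC, each with p = 0.0286 in a two-sided exact permutation test, the smallest p that 4 against 4 libraries allow, and 0.214 after adjustment over 15 such ratios. The direction depended on Egf, the most abundant of these markers: with Egf left out, the differences were -0.22 and -0.20. The levels of Egf itself are given with the segment markers below.

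Group means of the ENaC subunits were lower in DN than in NC and higher in DN+NaB than in DN, and none of these differences was called. The γ subunit gene Scnn1g had 92.2, 88.0, 86.5 and 81.2 CPM in DN+NaB. It had 79.6, 79.1, 75.4 and 66.4 CPM in DN. The NC libraries had 112.5, 106.0, 111.3 and 70.3 CPM. All 4 DN+NaB libraries were above all 4 DN libraries, and 4.56% of all genes tested did not overlap between these groups, in either direction. Of the NC libraries, 3 were above all the others, while NC replicate 4 was among the lowest.

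In DN against NC the log2 fold change of Scnn1g was -0.41 (SE 0.13, 95% interval -0.70 to -0.12, unadjusted p = 0.00843, adjusted p = 0.0788, edgeR's test). Whether it was called depended on single choices: without NC replicate 4 it was -0.56, with an adjusted p of 0.00218 in edgeR's test, and it was called. Without DN replicate 4 it was -0.38, with an adjusted p of 0.0995 in the same test. It was also called without TMM scaling (adjusted p = 0.0161) and with a stricter filter on low counts (adjusted p = 0.0475), both by edgeR. Over all 22 alternatives the adjusted p in DN against NC ran from 0.0021 to 0.188, and the log2 fold change from -0.56 to -0.36. The value for DN+NaB against DN was 0.21 (SE 0.13, 95% interval -0.08 to 0.50, adjusted p = 0.639 in edgeR's test). That for DN+NaB against NC was -0.20 (adjusted p = 0.343), and -0.35 without NC replicate 4 (adjusted p = 0.0195), by the same test.

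The β subunit gene Scnn1b had 105.8, 115.7, 107.4 and 102.3 CPM in DN+NaB. The DN libraries had 92.7, 95.9, 93.7 and 63.3 CPM, and the NC libraries 114.5, 107.7, 109.3 and 81.5 CPM. Every DN+NaB library was above every DN library, where 4.56% of all genes tested did not overlap in either direction. The log2 fold change in DN+NaB against DN was 0.32 (SE 0.14, 95% interval 0.02 to 0.62, unadjusted p = 0.0381, adjusted p = 0.478, edgeR's test). With NC replicate 4 and DN replicate 4 both left out it was 0.20. In DN against NC it was -0.26 (95% interval -0.56 to 0.04), or -0.37 without NC replicate 4 and -0.15 without DN replicate 4. In DN+NaB against NC it was 0.06 (-0.24 to 0.36), or -0.047 without TMM scaling. Scnn1b overlaps Cog7 on the opposite strand, with 0 shared exon bases in GENCODE M21.

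The α subunit gene Scnn1a had 384.2, 396.3, 297.3 and 343.6 CPM in DN+NaB. It had 359.6, 306.6, 374.9 and 269.5 CPM in DN and 377.9, 417.6, 406.7 and 186.6 CPM in NC. The groups overlap, and NC replicate 4 was at 46.6% of the mean of the other 3 NC libraries. The log2 fold change was -0.08 (95% interval -0.53 to 0.37) in DN against NC and 0.12 (-0.33 to 0.57) in DN+NaB against DN. Without NC replicate 4 the first value was -0.30, and without DN replicate 4 it was -0.020. The CPM of Scnn1a were 4.17, 4.50, 3.44 and 4.23 times those of Scnn1g in DN+NaB, 4.52, 3.88, 4.97 and 4.06 times in DN and 3.36, 3.94, 3.65 and 2.66 times in NC. The DN ratios were above the NC ratios except that DN replicate 2 was below NC replicate 2, and this ratio was not tested.

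The ratio of the β to the γ subunit overlapped between all 3 groups. The CPM of Scnn1b were 1.15 to 1.31 times those of Scnn1g in DN+NaB, 0.954 to 1.24 times in DN and 0.982 to 1.16 times in NC. DN replicate 4 gave the lowest of these ratios. Against the summed CPM of 10 principal cell markers, no difference of Scnn1a, Scnn1b or Scnn1g between groups passed in two-sided exact permutation tests (smallest p = 0.114, adjusted p = 0.571, Scnn1g in DN against NC). The principal cell marker sum itself was 1164 to 1613 CPM in DN+NaB, 1136 to 1499 CPM in DN and 1254 to 1604 CPM in NC. Its largest part was 1 gene, Tfcp2l1, with means of 662 CPM in DN+NaB, 684 in DN and 742 in NC. The mean sums were 1364, 1361 and 1412 CPM, so these ratios rest largely on that gene. The upstream windows of Scnn1g and Scnn1b are shown because these genes are neighbours on chromosome 7, with 1 annotated gene between them. Both also had higher values in every DN+NaB library than in any DN library. Neither difference was called, and 4.56% of all genes tested did not overlap between these groups. Both are on the plus strand, Scnn1g at chr7:121734229-121734418 and Scnn1b at chr7:121864788-121864977, and capitals again mark GC boxes.

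Scnn1g: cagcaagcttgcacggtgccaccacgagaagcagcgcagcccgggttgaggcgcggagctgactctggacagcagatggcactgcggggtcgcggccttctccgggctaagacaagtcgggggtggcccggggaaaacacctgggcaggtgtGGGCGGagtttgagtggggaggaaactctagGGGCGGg
Scnn1b: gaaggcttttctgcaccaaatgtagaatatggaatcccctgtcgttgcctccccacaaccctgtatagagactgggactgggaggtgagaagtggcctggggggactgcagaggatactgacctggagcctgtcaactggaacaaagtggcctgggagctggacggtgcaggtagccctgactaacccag

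The Scnn1g window holds 2 GC boxes and 66.8% GC, and the Scnn1b window holds 0 GC boxes and 56.3% GC. Neither holds the hexamer AGAACA or its reverse complement TGTTCT, which occurs in 12.7% of all windows.

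**Figure D2:**
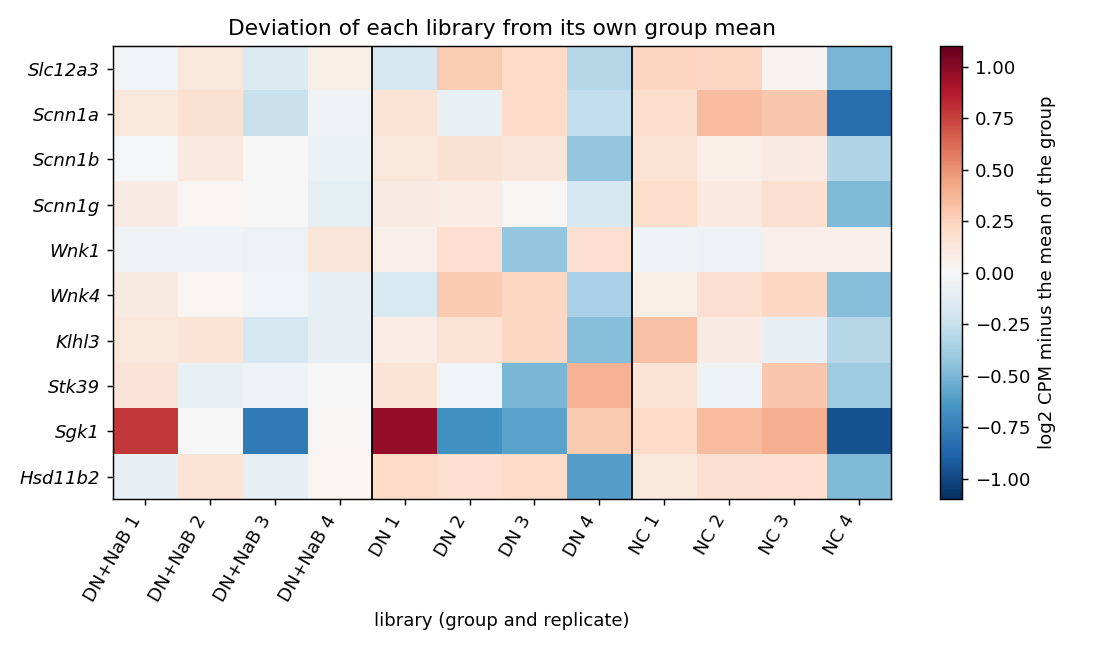
Deviation of each library's log2 CPM from the mean of its own group for that gene, with genes in rows, libraries in columns by group and colour for the deviation in log2 units. NC replicate 4 is below the other NC libraries in 9 of 10 rows and DN replicate 4 is the lowest DN library in 7 of 10 rows, while Sgk1 varies most among libraries of 1 group.

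Sgk1 and Hsd11b2 belong to the corticosteroid side of this pathway. Sgk1, the kinase that restrains the removal of ENaC from the membrane, had 452.0, 262.4, 153.3 and 265.5 CPM in DN+NaB. It had 360.4, 116.2, 122.2 and 224.5 CPM in DN and 255.1, 278.6, 290.7 and 113.2 CPM in NC. Its libraries spread more within a group than those of any other of the 10 genes, with a coefficient of variation of 43.8% in DN+NaB, 55.6% in DN and 35.1% in NC. The log2 fold change was -0.19 (95% interval -1.13 to 0.75) in DN against NC, or -0.42 without NC replicate 4 and -0.24 without DN replicate 4, and 0.46 (-0.48 to 1.40) in DN+NaB against DN. Both intervals include 0 and are the widest among the 10 genes.

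Sgk1 has several RefSeq starts, and 1 of them is shown because its window holds the palindrome to which the glucocorticoid and mineralocorticoid receptors bind. The window lies at chr10:21993640-21993829 on the plus strand, downstream of the windows of several other Sgk1 starts. Capitals mark matches to AGAACA or TGTTCT, to the E-box CACGTG and to the GC box. The full element reads AGAACA, 3 bases of any kind and TGTTCT, on either strand, and the E-box shares letters with another of these hexamers.

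Sgk1: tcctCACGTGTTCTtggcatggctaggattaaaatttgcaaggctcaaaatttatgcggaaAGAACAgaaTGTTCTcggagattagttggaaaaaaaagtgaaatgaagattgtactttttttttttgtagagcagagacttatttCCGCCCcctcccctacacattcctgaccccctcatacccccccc

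The full element was found in 3 of all 32851 windows, or 0.00913%, the E-box in 4.03% and either hexamer in 12.7%. The windows of the other Sgk1 starts held 0 full elements, and the counts merge all Sgk1 starts.

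Hsd11b2, the enzyme that protects the mineralocorticoid receptor from glucocorticoids, had 206.0, 243.8, 206.2 and 223.1 CPM in DN+NaB. The DN libraries had 217.1, 213.6, 218.0 and 123.4 CPM, and the NC libraries 230.5, 240.7, 242.1 and 151.6 CPM. The low value in DN and in NC was again replicate 4, at 57.1% of the mean of the other DN libraries and 63.8% of that of the other NC libraries. The log2 fold change was -0.16 (95% interval -0.56 to 0.23) in DN against NC, or -0.31 without NC replicate 4 and -0.018 without DN replicate 4. It was 0.19 (-0.21 to 0.58) in DN+NaB against DN, or 0.027 without DN replicate 4.

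Counted over the set, 0 of the 10 genes were called in DN against NC, where 8.23% of all genes tested were called by edgeR. DESeq2 and limma-voom also called 0, and 2 of the 10 (Scnn1g and Wnk1) had an unadjusted p under 0.05 in edgeR, against 21.9% of all genes tested. The median log2 fold change of the 10 was -0.18, against 0.01 over all genes tested, and 9 of the 10 were negative. Only Wnk1 had groups that did not overlap, against 13.3% of all genes tested. The median of the 10 was -0.32 without NC replicate 4 and -0.092 without DN replicate 4.

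In DN+NaB against DN, 0 of the 10 were called, where 0.0228% of all genes tested were called by edgeR, and DESeq2 and limma-voom called 0 of the 10 as well. Scnn1b alone had an unadjusted p under 0.05, against 9.85% of all genes tested. The median log2 fold change was 0.19, against -0.02 over all genes tested, and 8 of the 10 were positive, all but Wnk1 and Stk39. Without DN replicate 4 this median was 0.05, with Scnn1a at 0.038, Klhl3 at 0.062, Wnk4 at -0.011 and Slc12a3 at 0.15. Scnn1b and Scnn1g, both higher in DN+NaB, had groups that did not overlap, against 4.56% of all genes tested. The median in DN+NaB against NC was 0.03, against -0.01 over all genes tested, and it turned to -0.15 without NC replicate 4 and to -0.075 without TMM scaling, with Wnk1 the 1 gene whose groups did not overlap, against 27.9% of all genes tested. Since DN enters the first 2 comparisons with opposite sign, low DN values move both in opposite directions.

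**Figure D3:**
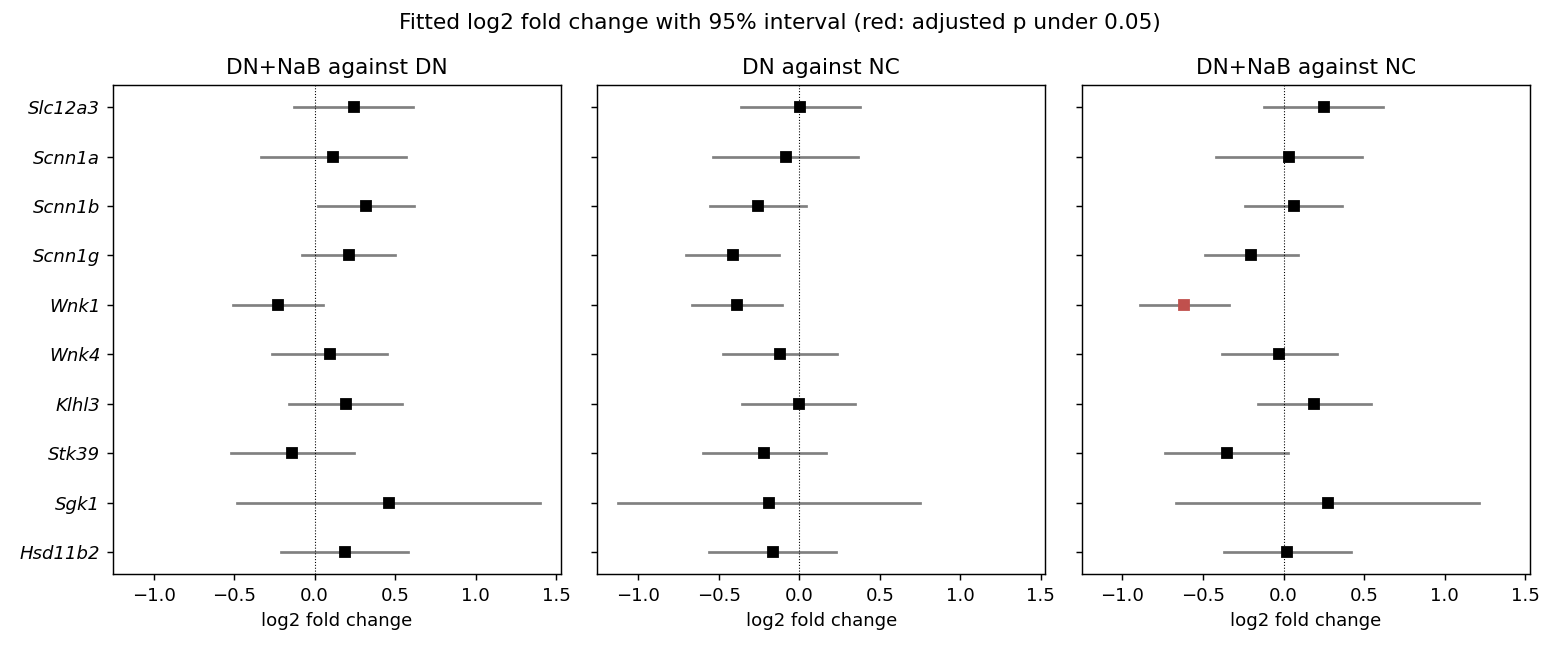
Log2 fold change of each of the 10 genes in the 3 comparisons with its 95% interval from the edgeR fit, with genes down the page and 1 panel per comparison; a red square marks an adjusted p under 0.05. Wnk1 in DN+NaB against NC, at -0.62, is the only red square, and the intervals of Sgk1 are the widest.

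Other genes of the same pathways were read from lists chosen by function. Of 11 partners of the WNK and SPAK kinases and regulators of NCC, 0 were called in DN against NC, 0 in DN+NaB against DN and 1, lower, in DN+NaB against NC by edgeR. At an unadjusted p under 0.05 there were 1, 0 and 4 of the 11 in these comparisons, and DESeq2 called 0, 0 and 2 and limma-voom 0, 0 and 1. The 1 of 11 is below the 15.6% of all genes tested that were called in DN+NaB against NC. The gene called by edgeR was Cab39l, which encodes a scaffold protein that activates SPAK. It had 30.3 to 34.4 CPM in DN+NaB and 45.3 to 53.5 CPM in NC, with no overlap, as for 27.9% of all genes tested. It fell by 0.61 on the log2 scale (SE 0.16, adjusted p = 0.018, edgeR's test), and over the alternatives its adjusted p reached 0.0575. The median log2 fold change of the 11 genes in this comparison was -0.20, against -0.01 over all genes tested.

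Of 12 regulators of ENaC, edgeR called 0 in DN against NC, 0 in DN+NaB against DN and 2, both lower, in DN+NaB against NC. There were 1, 0 and 6 with an unadjusted p under 0.05, and DESeq2 called 0, 0 and 3 and limma-voom 0, 0 and 2. The 2 of 12 is near the 15.6% of all genes tested called there, so the count is not a result about this list. Nedd4l, the ubiquitin ligase that removes ENaC from the membrane, had 109 to 146 CPM in DN+NaB, against 153 to 176 CPM in NC. These groups did not overlap, as for 27.9% of all genes tested. Nedd4l fell by 0.46 (SE 0.11, adjusted p = 0.0134, edgeR's test). Usp2, a deubiquitinase reported to act on ENaC, had 184 to 329 CPM in DN+NaB, against 312 to 418 CPM in NC, which overlap, and fell by 0.60 (SE 0.18, adjusted p = 0.0372, edgeR's test). The adjusted p of Nedd4l reached 0.0517 and that of Usp2 0.111 over the alternatives. The log2 fold changes in DN+NaB against DN were -0.24 for Nedd4l (adjusted p = 0.522) and -0.38 for Usp2 (adjusted p = 0.517), by edgeR's test. Without DN+NaB replicate 3, and also without DN+NaB replicate 4, neither Nedd4l nor Usp2 was called in DN+NaB against NC. Usp2 was not called there without NC replicate 1, 2 or 3 either. With NC replicate 4 and DN replicate 4 both left out, 4 of the 12 were called in this comparison.

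Of 14 genes of the mineralocorticoid and glucocorticoid receptor pathway, edgeR called 1 higher and 1 lower in DN against NC and 0 in the other comparisons. In DN+NaB against DN and DN+NaB against NC, 3 and 4 had an unadjusted p under 0.05, DESeq2 called 0 and 1, and limma-voom 0 and 0. In DN against NC 8.23% of all genes tested were called. There 7 of the 14 had an unadjusted p under 0.05, against 21.9% of all genes tested, and DESeq2 called 4 and limma-voom 3. Hsd11b1, which regenerates active glucocorticoid, had 19.0 to 23.6 CPM in DN, against 31.3 to 40.1 CPM in NC. It fell by 0.73 (SE 0.17, adjusted p = 0.0163, edgeR's test) and was called under every alternative. Mt1, a metallothionein gene that glucocorticoids induce, had 57.5 to 79.3 CPM in DN, against 32.5 to 57.8 CPM in NC, which overlap slightly. It rose by 0.69 (SE 0.20, adjusted p = 0.0457, edgeR's test), but this call held in 8 of 22 alternatives, with adjusted p up to 0.13, and was lost in 9 of the 12 that left out a single library. The mineralocorticoid receptor gene Nr3c2 had 23.5 to 26.1 CPM in DN+NaB, 25.3 to 35.9 CPM in DN and 22.3 to 36.9 CPM in NC. Its log2 fold change in DN+NaB against DN was -0.28 (adjusted p = 0.571, edgeR's test). With NC replicate 4 and DN replicate 4 both left out, 5 of the 14 genes were called in DN against NC.

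Of 9 tested genes for basolateral salt exit and potassium channels, edgeR called 1, in DN+NaB against NC. The 1 of 9 is below the 15.6% of all genes tested that were called there. In the other comparisons edgeR, DESeq2 and limma-voom called 0. There 2 (DN against NC) and 1 (DN+NaB against DN) had an unadjusted p under 0.05. The called gene was Atp1b1, the β subunit of the sodium pump, with 1877 to 2188 CPM in DN+NaB, 2308 to 3020 CPM in DN and 2302 to 2856 CPM in NC. It fell by 0.39 in DN+NaB against NC (SE 0.12, adjusted p = 0.0425, edgeR's test). This call held in 16 of 22 alternatives, with adjusted p up to 0.119, and was lost in 6 of the 12 that left out a single library. The DN+NaB libraries of Atp1b1 were below all DN and all NC libraries, against 4.56% and 27.9% of all genes tested with no overlap. Its log2 fold change in DN+NaB against DN was -0.40 (adjusted p = 0.27, edgeR's test).

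**Figure D4:**
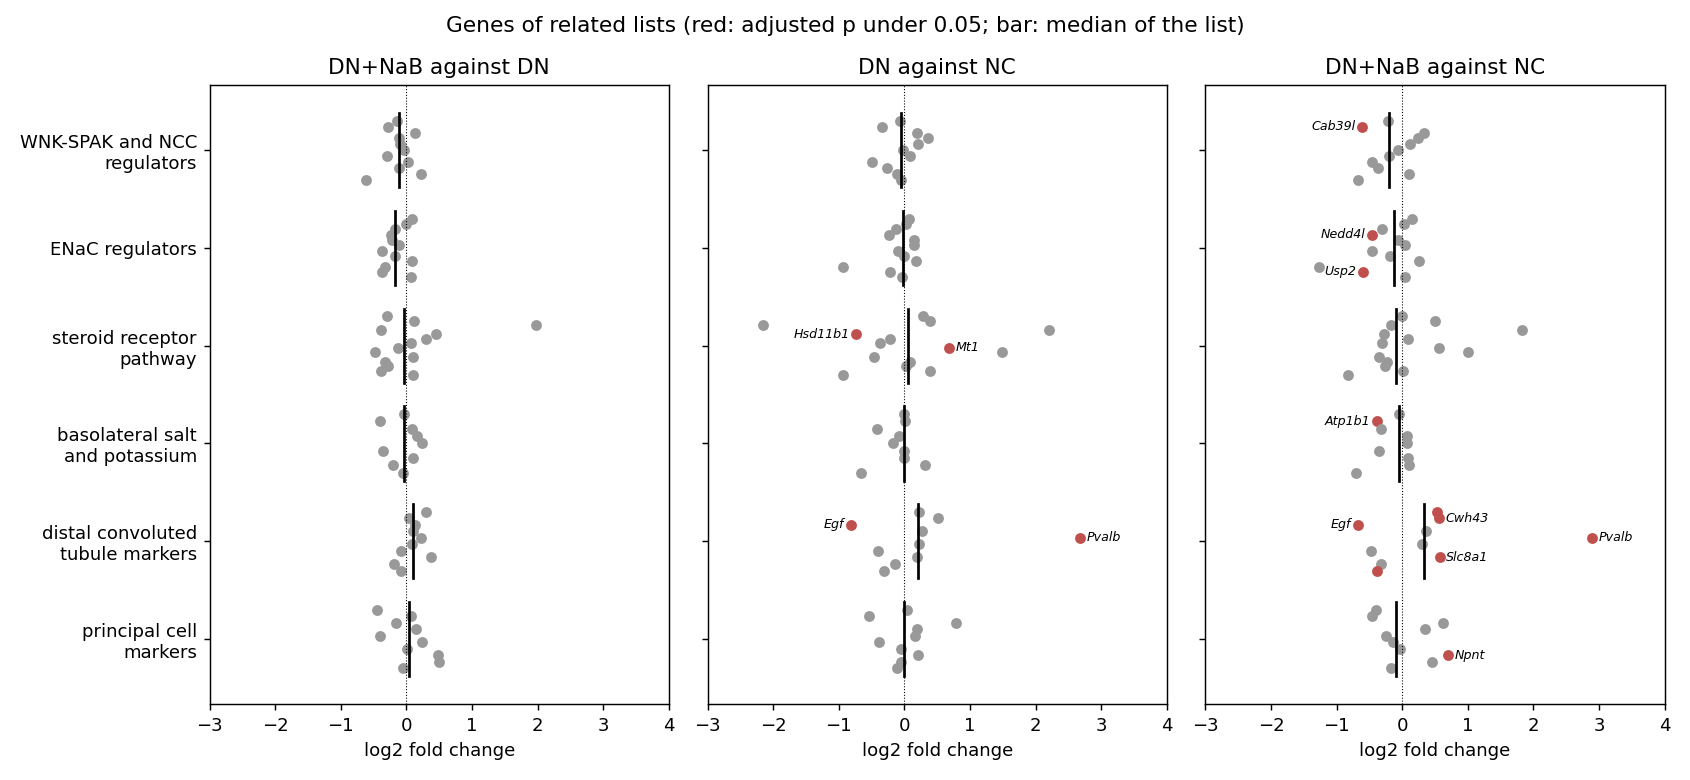
Log2 fold changes of the genes in 6 related lists, with 1 panel per comparison, 1 row per list, 1 point per gene and a bar at the median of the list; red points have an adjusted p under 0.05 in edgeR. Pvalb, at 2.68 in DN against NC and 2.89 in DN+NaB against NC, lies far to the right of all others among the distal convoluted tubule markers.

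The distal convoluted tubule markers did not move together. Pvalb, the parvalbumin gene of the early part of this segment, had 129 to 193 CPM in DN+NaB, 92.1 to 200 CPM in DN and 12.9 to 25.2 CPM in NC. It rose by 2.68 in DN against NC (SE 0.26, adjusted p = 3.88e-05) and by 2.89 in DN+NaB against NC (SE 0.26, adjusted p = 1.69e-05), in edgeR's test. Egf, the epidermal growth factor gene, had 1597 to 2142 CPM in DN+NaB, 1230 to 2249 CPM in DN and 2360 to 3607 CPM in NC. It fell by 0.81 in DN against NC (SE 0.18, adjusted p = 0.0118) and by 0.68 in DN+NaB against NC (SE 0.18, adjusted p = 0.0201), in edgeR's test. The second call held in 17 of 22 alternatives, with an adjusted p of up to 0.067 when single libraries (NC replicate 1 or 3, DN+NaB replicate 2, 3 or 4) were left out. Of the 10 markers, these were the 2 called in DN against NC, where 8.23% of all genes tested were called. In DN+NaB against NC 4 were called higher and 2 lower, against 6.62% and 8.94% of all genes tested.

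Among the others, Slc8a1, the sodium-calcium exchanger, rose by 0.57 in DN+NaB against NC (SE 0.13, adjusted p = 0.00851, edgeR's test). Its level was 526 to 663 CPM in DN+NaB, against 363 to 441 CPM in NC. Cwh43 rose by 0.55 there (SE 0.15, adjusted p = 0.0263, edgeR's test). This call was lost in 5 of the 12 fits that left out a single library, with adjusted p up to 0.076 in the same test. The count of 6 called markers ran from 2 to 7 when single libraries were left out. Of 10 principal cell markers, edgeR called 0 in DN against NC, against 8.23% of all genes tested. There 2 had an unadjusted p under 0.05, DESeq2 called 1 and limma-voom 0. In DN+NaB against NC edgeR called 1, against 15.6% of all genes tested. That gene was Npnt, the nephronectin gene, with 220 to 298 CPM in DN+NaB, 153 to 199 CPM in DN and 138 to 176 CPM in NC, and it rose by 0.70 against NC (SE 0.12, adjusted p = 0.00196, edgeR's test). None of the 6 lists had a gene called by edgeR in DN+NaB against DN, also with any single library left out; 1 distal convoluted tubule marker and 2 principal cell markers had an unadjusted p under 0.05, DESeq2 called 0 and 1 and limma-voom 0 and 0.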

How the data were processed

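The submitters deposited 1 table of whole-number counts per gene symbol for all 12 libraries, not normalized. Per the submitters' processing notes, HISAT2 2.0.4 was used; not given in the sources used here are the counter, its strand setting, the gene annotation and the build. Per the labels' protocols, tissue was frozen, RNA extracted with Trizol and libraries made by Illumina protocols.

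Of 46095 symbols, 18156 had 0 counts in every library, and filterByExpr by group kept 17530, which held at least 99.95% of each library's counts. Median depth was 63588713. Counts were scaled with TMM factors and fitted by edgeR's quasi-likelihood method over all libraries, with terms for the 3 groups and robust dispersion (edgeR 4.0.16, limma 3.58.1, DESeq2 1.42.0, R 4.3.3), with 9 residual degrees of freedom, two-sided tests and Benjamini-Hochberg adjustment over all genes tested at 0.05. CPM use the TMM factors; log2 CPM have a prior count of 2. Ratios to marker sums were compared by exact permutation of the 8 libraries in 2 groups (70 splits). Intervals are 95%. The fit was tested on simulated data.

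The 10 genes, the gene lists and the tests were chosen with earlier results of these data known. All 10 genes are named; from each list, up to 4 genes with the smallest p in the comparison described; for called members, the 2 most alike genes with a mean of at least 1 CPM. Nr3c2 and the tissue check genes were named outside this rule, with their values seen. No 2 libraries agreed within sampling noise (smallest chi-square per degree of freedom 23.6). Alternatives were other scalings, filters and tools, a replicate block, and libraries left out.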

Additional observations from a re-analysis of the deposited data

Results flagged for a closer look

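Dixon's test on log2 CPM with TMM factors was applied to 30 sets of 4 libraries (10 genes in 3 groups). In 7 sets, a value had a gap to its nearest neighbour that was large against the range of the set. For independent sets chance gives about 1 in 20, but these sets share 12 libraries. The share over all genes was not computed, so an excess among the 10 genes is not shown. NC replicate 4 was the lowest NC library for 35.5% of all genes tested and the highest for 35.6%. For DN replicate 4 among DN libraries these shares were 33.4% and 32.7%. On linear CPM, Scnn1a and Sgk1 in NC replicate 4 no longer stood apart. Without TMM factors, Scnn1g in NC and Wnk1 in DN+NaB no longer did, while Wnk4 in NC replicate 4 and Klhl3 in DN replicate 4 did. NC replicate 4 gave 4 of them, each below the other NC libraries: Scnn1a at 187 CPM, Scnn1g at 70.3 CPM, Sgk1 at 113 CPM and Hsd11b2 at 152 CPM. DN replicate 4 gave 2, each below the other DN libraries: Scnn1b at 63.3 CPM and Hsd11b2 at 123 CPM. Wnk1 in DN+NaB replicate 4, at 787 CPM, was above the other DN+NaB libraries. NC replicate 4 also had the lowest sums among NC libraries of the thick ascending limb, distal convoluted tubule, principal cell and intercalated cell markers, at 5387, 3254, 1254 and 479 CPM. Its podocyte and endothelial marker sums were the lowest too, at 590 and 632 CPM, but not its proximal tubule and immune cell sums. The low sums of NC replicate 4 were thus not limited to the distal nephron. DN replicate 4 had the lowest intercalated, proximal tubule, podocyte and endothelial sums of the DN libraries, at 357, 22623, 596 and 514 CPM. It had the highest principal cell and thick ascending limb sums, at 1499 and 5766 CPM. DN replicate 4 also had the largest TMM factor of the DN libraries, at 1.06, so the same limit holds for its sums. The part of these marker levels in the values above was not tested.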

How the results depend on the processing

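Wnk1 in DN+NaB against NC was called under all 22 alternatives, and 0 of the 10 genes were called in DN+NaB against DN under any. In DN against NC, where 0 were called, 1 was called without TMM scaling, with at least 1 CPM in 4 libraries, with the replicate block and with NC replicate 4 and DN replicate 4 left out together (Scnn1g each time); leaving out single libraries gave 0 to 1. In DN+NaB against NC 3 were called with those libraries left out together (Wnk1, Scnn1g and Stk39), and leaving out single libraries gave 1 to 2. Over all genes tested, leaving out single libraries gave 942 to 1976 calls in DN against NC and 0 to 67 in DN+NaB against DN. The 4 calls of DN+NaB against DN became 22 with DESeq2's size factors, 26 without TMM scaling, 27 with no filter, 17 with at least 1 CPM in 4 libraries, 257 by DESeq2, 2 by limma-voom, 0 with only the 2 groups compared and 47 with NC replicate 4 and DN replicate 4 left out together, the 1 setting chosen after seeing the data. Directions turned for some log2 fold changes and ratios, none of them called. Without TMM scaling these were Slc12a3 in DN against NC (-0.093) and, in DN+NaB against NC, Scnn1a (-0.068), Scnn1b (-0.047) and Hsd11b2 (-0.082). Slc12a3 in DN against NC was -0.027 with upper quartile factors, -0.0073 with no filter and -0.019 with at least 1 CPM in 4 libraries, where Scnn1a (-0.00025) and Hsd11b2 (-0.0094) turned in DN+NaB against NC. With only the 2 groups compared, Klhl3 in DN against NC was 0.0043. With both libraries left out, Slc12a3 (-0.055) and Klhl3 (0.018) turned in DN against NC, Wnk4 (-0.011) in DN+NaB against DN, and Scnn1a (-0.19), Scnn1b (-0.050) and Hsd11b2 (-0.13) in DN+NaB against NC. Leaving out single libraries, DN against NC ran from -0.15 to 0.084 for Slc12a3, -0.30 to 0.012 for Scnn1a, -0.11 to 0.11 for Klhl3 and -0.60 to 0.0088 for Sgk1. Wnk4 in DN+NaB against DN ran from -0.011 to 0.19. DN+NaB against NC ran from -0.19 to 0.13 for Scnn1a, -0.050 to 0.11 for Scnn1b, -0.17 to 0.049 for Wnk4, -0.044 to 0.48 for Sgk1 and -0.13 to 0.084 for Hsd11b2. The log2 ratio of Slc12a3 to its markers, by the geometric mean of the markers, was -0.22 in DN against NC and -0.063 in DN+NaB against NC; without the most abundant marker it was -0.22 and -0.20. For ratios to principal cell markers, the geometric mean gave -0.073 for Scnn1a in DN against NC and -0.019 for Hsd11b2 in DN+NaB against NC. Without the most abundant marker, Scnn1a was -0.075 in DN against NC and, in DN+NaB against NC, Scnn1a was -0.0037, Scnn1b -0.025 and Hsd11b2 -0.052. Leaving out single libraries, the Slc12a3 ratio in DN+NaB against DN ran from -0.0062 to 0.15. For Scnn1a the ratio ran from -0.19 to 0.17 in DN against NC, -0.020 to 0.27 in DN+NaB against DN and -0.072 to 0.28 in DN+NaB against NC. For Hsd11b2 these ranges were -0.28 to 0.13, -0.030 to 0.38 and -0.0073 to 0.21. These turns include Sgk1, whose main values were -0.19 in DN against NC and 0.27 in DN+NaB against NC, and the Slc12a3 ratios of 0.50 and 0.57. The cause of these turns was not tested.

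The labels do not say what the replicate numbers share, and not every same-numbered pair deviated together, so the libraries were not treated as paired. Deviations of same-numbered libraries from their group means correlated at -0.25 to 0.27, over 0.1 in 6 of 12 pairs, against 8 of 36 pairs with different numbers, and 5 of the 12 libraries correlated best with one of their own number. With the replicate block, DN+NaB against DN had 7 calls, Scnn1g in DN against NC was -0.40 (adjusted p = 0.0409, edgeR), and Wnk4 in DN+NaB against NC was 0.0031.

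With 4 libraries per group, the standard error of the 10 genes was 0.13 to 0.43 on the log2 scale, widest for Sgk1. Log2 fold changes of -0.41 and -0.39 with a standard error of 0.13 (Scnn1g and Wnk1 in DN against NC) did not pass. The lowest mean level of the 10 was 27.9 CPM, and the least count of any of them in a library was 1237; detection at other depths was not tested. Gene-level counts do not separate transcripts.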

Other observations

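Intercalated cells lie beside the principal cells that carry ENaC, and their genes had lower values in DN than in NC. Of 10 intercalated cell markers, 5 were called lower in DN against NC, 0 in DN+NaB against DN and 2, lower, in DN+NaB against NC (edgeR's test, all genes adjusted together), against 8.23%, 0.0228% and 15.6% of all genes tested. For DN+NaB against DN, 4 had an unadjusted p under 0.05, DESeq2 called 2 and limma-voom 0. The first count ran from 2 to 6 when single libraries were left out, with the lowest without NC replicate 1, and was 6 with NC replicate 4 and DN replicate 4 both left out. Slc26a4, the chloride-bicarbonate exchanger pendrin, had 50.2 to 65.5 CPM in DN+NaB, 26.5 to 48.1 CPM in DN and 53.3 to 68.9 CPM in NC. It fell by 0.72 in DN against NC (SE 0.16, adjusted p = 0.0124, edgeR's test). Insrr, an alkali-sensing receptor gene, had 42.7 to 53.4 CPM in DN+NaB, 25.3 to 39.4 CPM in DN and 45.4 to 63.7 CPM in NC, and fell by 0.72 in the same comparison (SE 0.15, adjusted p = 0.00754, edgeR's test). Atp6v1b1, a proton pump subunit gene, fell by 0.54 (SE 0.13, adjusted p = 0.0197) and the aquaporin gene Aqp6 by 0.55 (SE 0.16, adjusted p = 0.0487), both by edgeR. In the DN libraries, all values of Slc26a4 and Insrr were below all values of DN+NaB and of NC. Of all genes tested, 13.3% did not overlap between DN and NC and 4.56% between DN+NaB and DN. By log2 fold change, 8 of the 10 markers were higher in DN+NaB than in DN and 2 were lower. Mean levels in DN+NaB and DN were 81.5 and 84.7 CPM for Aqp6 and 20.1 and 24.1 CPM for Kit. The differences between DN+NaB and DN were not called.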
